A study of Mus musculus with 4 samples.

Results

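Ctnnb1, Gsk3b and Tcf7l2 encode the 3 proteins at the centre of the beta-catenin arm of Wnt signalling. They were taken by symbol from a list of RNA clusters bound by IMP2 (the product of Igf2bp2, which belongs to the IGF2BP family of RNA-binding proteins) in embryonic mouse brain, and their 52 lines were reduced to 18 distinct clusters of the 1828 in the list. All 3 genes carried clusters and are among the 761 listed genes. The study mapped the transcripts that IMP2 contacts by HITS-CLIP, in which ultraviolet light joins a protein to the RNA it touches and the RNA pulled down with an antibody is sequenced. Its 4 libraries, 2 titled with R and 2 with M, all came from whole E14 brain of Swiss Webster embryos immunoprecipitated for IMP2, and no genotype, treatment or control immunoprecipitation sets any of them apart in the labels. The protocol uses both a mouse and a rabbit antibody, and the labels do not tie a library to either or say how many embryos it holds.

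In the absence of a Wnt ligand, beta-catenin (Ctnnb1) is phosphorylated by glycogen synthase kinase 3 beta (Gsk3b) on a scaffold of APC and AXIN, ubiquitinated and degraded. A ligand that binds Frizzled and LRP receptors stops this, and beta-catenin accumulates, enters the nucleus and works with TCF/LEF factors such as TCF7L2 to switch on target genes. In the embryonic brain the pathway controls proliferation of neural progenitors and the patterning of forebrain and midbrain. Outside it, beta-catenin links cadherins to the actin cytoskeleton, and GSK3B phosphorylates microtubule-associated proteins of the growing axon. IGF2BP proteins are known for binding mRNA, largely in 3′ UTRs, and for acting on its transport, stability and translation.

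The list gives 1 height and 1 fold for a cluster, both the authors' values, and none for a single library. Which libraries they draw on is not stated. Nothing below therefore carries a replicate error, the R and M libraries were not compared, and no p-value is given. Height is read as the largest number of overlapping sequence tags in a cluster. The second value is read from its header as a fold of the height, over a level that the file does not define. Over all 1828 clusters, heights ran from 18 to 107 with a median of 30, folds from 2 to 25.5 with a median of 5.40, and widths from 10 to 588 bases with a median of 53. Depth is unknown because no source used here gives the tags behind each library, and a height cannot be divided by the amount of the transcript in the tissue. In this bulk tissue, a transcript in fewer cells and less of it per cell cannot be told apart. Of markers of the labelled tissue, 6 of 8 neuronal genes were listed (Dcx, Stmn2, Map2, Mapt, Elavl3 and Ncam1), against 1 of 6 progenitor genes (Vim). Of markers of other cells, 0 of 4 microglial and 0 of 4 endothelial genes were listed, and 2 of 4 erythroid genes (Hba-a1 and Hbb-y) were. Over all protein-coding genes 3.47% were listed (760 of 21896), so counts of 0 of 4 and 1 of 6 cannot be told from that share. The part of these cell types in the clusters described here was not tested.

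The beta-catenin transcript was one of the most densely covered in the list. Ctnnb1 lies on chromosome 9, and the deposited interval of its 3′ UTR runs from 120868636 to 120869625 on the plus strand (mm9), which is 990 bases. Whether its 3′ UTR begins in an upstream exon was not settled, and such a part would lie outside this interval. This interval held all 6 clusters of the gene. They covered 774 bases, or 78.2% of it, and left 216 bases bare. Among the 729 genes with a 3′ UTR cluster, this coverage was exceeded by 1 gene and the median was 4.70%. With 6.06 clusters per 1000 bases, Ctnnb1 ranked 5 of 729 in cluster density, where the median was 0.861. This density depends on how clusters are split: joining those at most 50 bases apart left 3 of the 6, and the rank was not recomputed.

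Within that interval, 3 tall and wide clusters alternated with lower and narrower ones. The tallest had a height of 86 and a fold of 9.62 and lay at chr9:120868675-120869015, from base 40 to base 380 of the interval. It was 341 bases wide, which ranked 13 of 1828 in width, and its height ranked 16. The next pair was low, with a height of 35 (fold 4.08) at chr9:120869067-120869142 and a height of 31 (fold 3.52) at chr9:120869146-120869189. These 2 clusters stood 3 bases apart, so only a very short gap separates them.

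The second tall cluster of Ctnnb1 had a height of 66 and a fold of 7.76 over 159 bases at chr9:120869217-120869375. It was followed by the lowest of the gene, with a height of 22 and a fold of 2.65 over 58 bases at chr9:120869427-120869484. The last cluster had a height of 68 (fold 7.93) over 96 bases at chr9:120869492-120869587 and ended 38 bases before the end of the interval. The tall clusters thus lay towards the start, past the middle and near the end of the interval, centred at 21.2%, 66.7% and 91.3% of its length. Of the 6 clusters, 5 were taller than the list median of 30. Across the list this held for 46.9% of clusters (857 of 1828). It held for 12 of the 18 clusters of the 3 genes (66.7%), with 5 of 8 in Gsk3b and 2 of 4 in Tcf7l2. The genes were chosen with earlier results known and clusters of a gene are not replicates, so these shares were not tested.

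**Figure D1:**
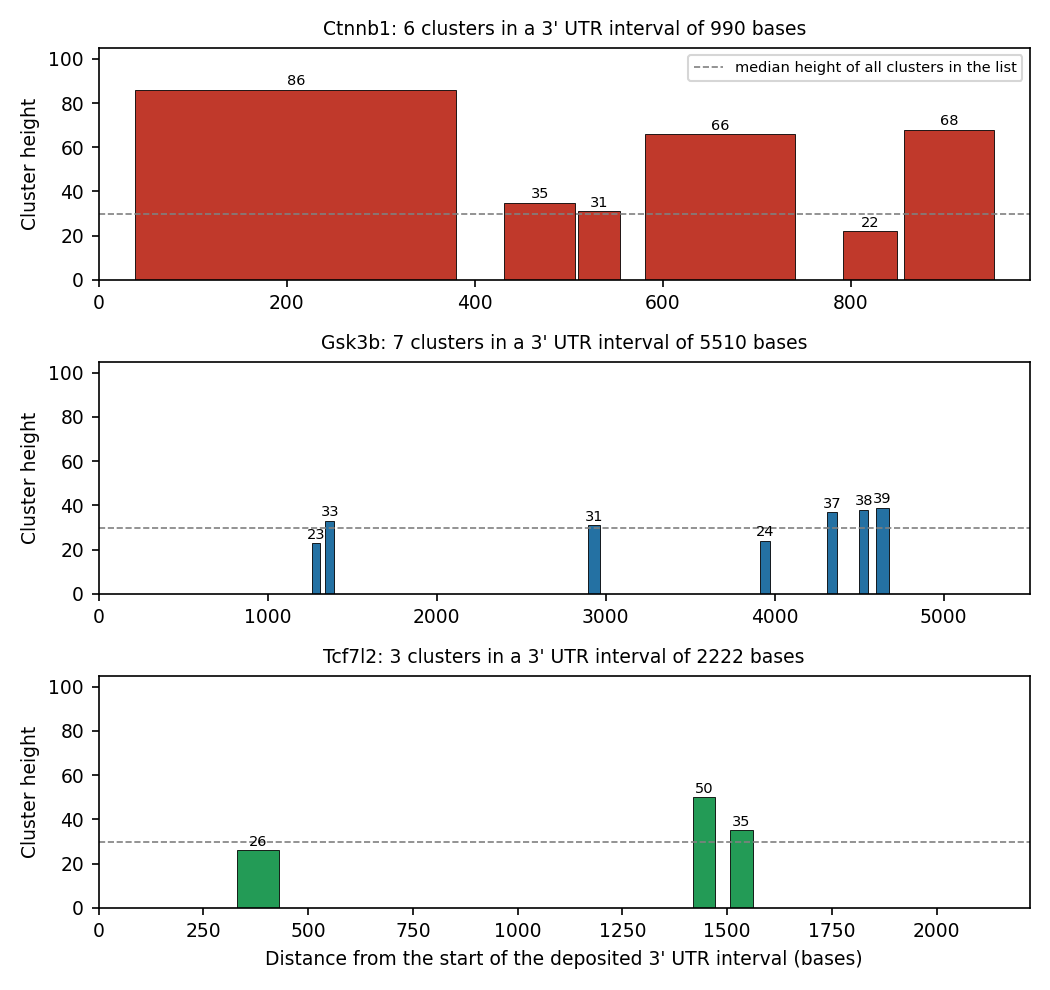
Clusters in the deposited 3′ UTR interval of Ctnnb1, Gsk3b and Tcf7l2. The x axis is the distance in bases from the start of the interval (a separate scale for each gene). Each bar spans a cluster at its true width, and the y axis and number are its height (1 value per cluster, none per library). The bars of Ctnnb1 fill most of its 990 bases and reach 86, while those of Gsk3b and Tcf7l2 are narrow, spaced apart and reach 39 and 50; the dashed line is the list median of 30.

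Gsk3b, the kinase that marks beta-catenin for degradation, carried more clusters, but they were lower and scattered over a long 3′ UTR. The gene is on chromosome 16, and its 3′ UTR interval (38240656 to 38246165, plus strand, mm9) is 5510 bases long, rank 41 of 729 by length. It held 7 of the 8 clusters of the gene, and an eighth was in coding sequence. The 3′ UTR clusters covered 422 bases (7.66%, rank 245 of 729), with 1.27 per 1000 bases. With 8 clusters, Gsk3b ranked 29 of the 761 genes by number, and 9 genes including it had that number. All its heights lay between 21 and 39, a 1.86-fold range, against the 3.91-fold range of Ctnnb1.

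No cluster was listed in the first 1260 bases of the Gsk3b interval. The first pair stood 31 bases apart, with a height of 23 (fold 3.47) at chr16:38241916-38241964 and a height of 33 (fold 4.95) at chr16:38241996-38242049. A bare stretch of 1500 bases followed, the longest of the gene. The next cluster was isolated, with a height of 31 and a fold of 3.78 at chr16:38243550-38243623.

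The remaining 4 Gsk3b clusters fell between bases 3916 and 4679 of the interval and included the tallest of the gene. Their heights were 24 (fold 3.17) at chr16:38244571-38244625, 37 (fold 5.44) at chr16:38244969-38245025, 38 (fold 4.46) at chr16:38245157-38245208 and 39 (fold 4.96) at chr16:38245254-38245334. The 3 tallest were thus neighbours and differed by 2 at most, while the gaps between these 4 clusters narrowed along the transcript, at 343, 131 and 45 bases. The final 831 bases held no cluster. By its highest cluster Gsk3b ranked 213 of 761, a place shared by 18 genes with a height of 39, and the fold of its tallest cluster was below the list median of 5.40.

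Tcf7l2, the TCF/LEF transcription factor that beta-catenin binds in the nucleus, had the fewest clusters of the 3 genes. It lies on chromosome 19, and its 4 clusters were annotated to 8 transcripts. Its longest 3′ UTR interval runs from 56005924 to 56008145 (2222 bases, plus strand, mm9) and held 3 clusters, which covered 211 bases (9.50%, rank 208 of 729). The tallest had a height of 50 and a fold of 6.43 over 54 bases at chr19:56007342-56007395, and 34 bases on came one of height 35 and fold 4.83 over 55 bases at chr19:56007430-56007484. By its highest cluster the gene ranked 98 of 761, with 5 genes at 50, so it stood between Ctnnb1 (13) and Gsk3b (213). By the median height of all its clusters this order turned, with Tcf7l2 at 287 and Gsk3b at 236.

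The other 3′ UTR cluster of Tcf7l2 was low and wide, with a height of 26 and a fold of 5.14 over 102 bases at chr19:56006253-56006354, and 987 bases separated it from the tall pair. Its place in the transcript depends on the isoform. It lay in the 3′ UTR of 7 of the 8 transcripts, while in the other one its midpoint fell in the coding sequence, since the deposited intervals give this gene 4 lengths of 3′ UTR from 1798 to 2222 bases. The tall pair lay in the 3′ UTR of all 8. Reads that cover a shared last exon cannot be assigned to an isoform here.

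Gsk3b and Tcf7l2 each also had a cluster in coding sequence, and both were low and narrow. The Gsk3b cluster had a height of 21 and a fold of 3.51 over 24 bases at chr16:38228765-38228788, covering bases 2 to 25 of a 99-base coding exon. The Tcf7l2 cluster also had a height of 21, with a fold of 4.35 over 29 bases at chr19:55982965-55982993, at bases 53 to 81 of a 133-base coding exon. By width they ranked 1824 and 1773 of 1828. Both heights were close to 18, the lowest in the list. The 99 coding clusters of the whole list had a median height of 26 and a median width of 42 bases, against 30 and 55 for the 1721 in 3′ UTRs. Clusters in both regions were found in 38 of the 761 listed genes (4.99%), but 419 of the 761 had only 1 cluster and could not have both. Ctnnb1 had none outside its 3′ UTR, and none of the 3 genes had a cluster in a 5′ UTR.

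**Figure D2:**
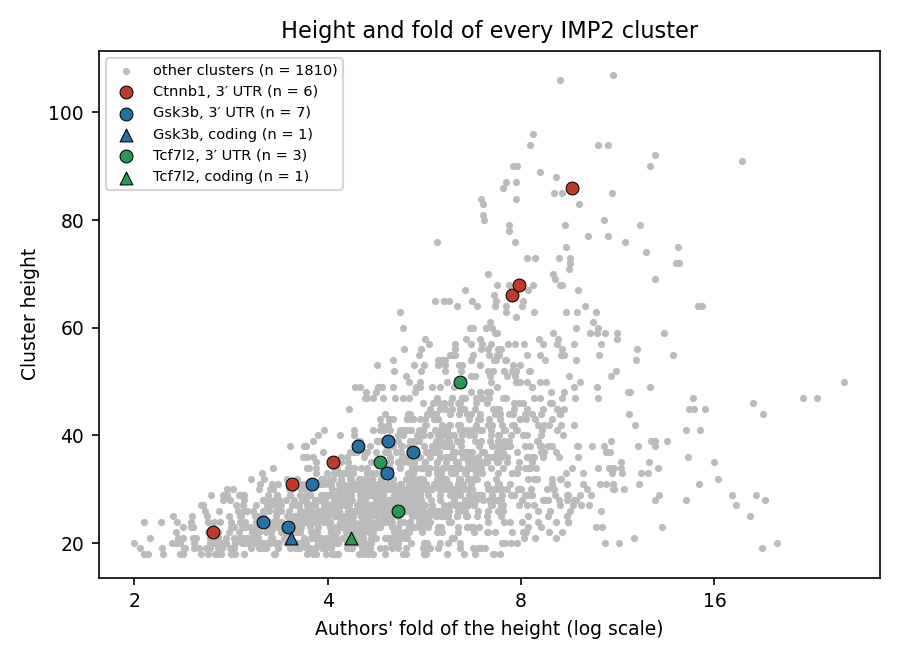
Height (y axis) against the authors' fold (x axis, log scale) for all clusters, with the 6 of Ctnnb1, 8 of Gsk3b and 4 of Tcf7l2 in colour (circles for 3′ UTR, triangles for coding sequence) and the other 1810 in grey. The 3 tall Ctnnb1 clusters stand well above the rest of the coloured points, and both triangles lie near the lower edge at a height of 21.

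The 3 genes also differed in how fold followed height. Dividing height by fold gives the level implied for each cluster if the value is such a fold. In Ctnnb1 this level stayed between 8.30 and 8.94, a 1.08-fold range over 6 clusters, in tall and low clusters alike. Of the 127 genes with at least 4 clusters, 3 including Ctnnb1 had a range as small as this, and the median range was 1.42-fold. In Gsk3b the implied level ran from 5.98 in coding sequence to 8.52 in the 3′ UTR (1.42-fold). In Tcf7l2 it was 4.83 for the coding cluster, 5.06 for the first 3′ UTR cluster, and 7.78 and 7.25 for the tall pair (1.61-fold). No source used here says what the level measures. The ranks by fold were lower than those by height for all 3 genes: 106 for Ctnnb1, 384 for Tcf7l2 and 507 for Gsk3b.

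Coverage was set beside that of genes with 3′ UTR intervals of similar length (within 20% on either side). None of the 101 other genes in the length range of Ctnnb1 was covered more, and their coverage ran from 2.76% to 70.7% with a median of 7.05%. This rests on the edge of the range, since Rtn1 (78.4% of 783 bases), the 1 listed gene covered more, fell just below it. The median of the 101 genes was 1 cluster in the 3′ UTR, against 6 in Ctnnb1. For Gsk3b, 8 of 68 genes in its range were covered more and the median was 1.61%, and for Tcf7l2 this was 27 of 135 genes with a median of 3.46%. The tallest cluster was higher in 3 of the 101 genes than in Ctnnb1, in 18 of the 68 than in Gsk3b and in 18 of the 135 than in Tcf7l2. This comparison was chosen after the values were seen and is a description with no test.

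**Figure D3:**
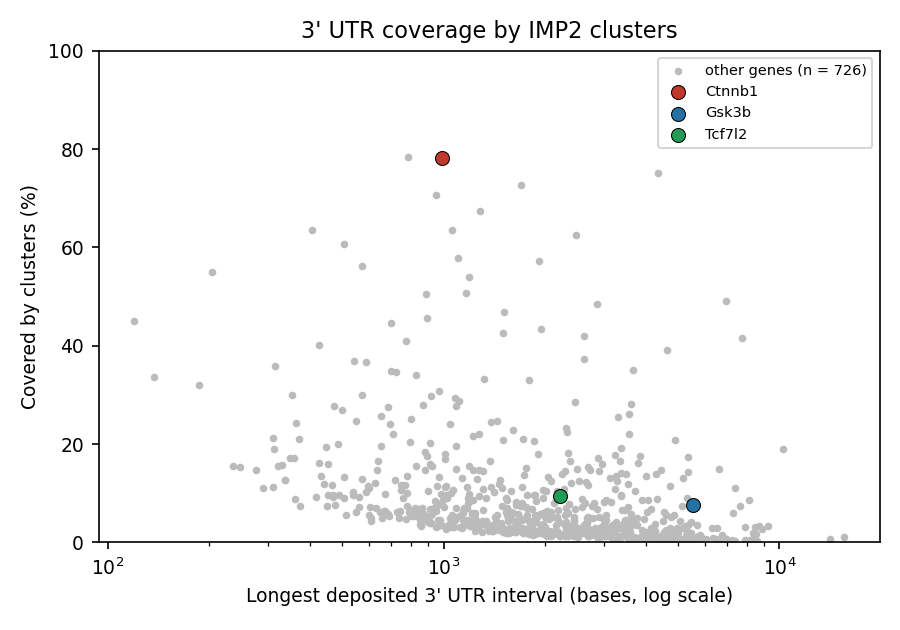
Percent of the longest deposited 3′ UTR interval covered by clusters (y axis) against its length in bases (x axis, log scale) for the 729 genes with a 3′ UTR cluster; each point is a gene. Ctnnb1 (78.2% of 990 bases) lies at the upper edge, while Gsk3b (7.66% of 5510 bases) and Tcf7l2 (9.50% of 2222 bases) lie above most genes of their length but within the main cloud.

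Along the 3′ UTR, the midpoints averaged 60.5% ± 25.5 of the way through the interval in Ctnnb1 (SD over 6 clusters), 59.7% ± 26.4 in Gsk3b (SD over 7 clusters) and 50.4% ± 28.9 in Tcf7l2 (SD over 3 clusters). The spread within each gene was far wider than the differences between them. Bare stretches at the start of the interval measured 39 bases in Ctnnb1, 1260 in Gsk3b and 329 in Tcf7l2. No cluster of the 3 genes was assigned to another gene.

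The genes most alike were found from the number of 3′ UTR clusters, the highest height, the length of the interval and its coverage, as a distance over these 4 standardised measures among 729 genes. Nearest to Ctnnb1 were Basp1, which encodes a membrane-bound protein of growth cones (5 clusters, height 76, 70.7% of 952 bases covered), Nrep (5 clusters, height 106, 72.6% of 1695 bases) and the reticulon gene Rtn1 (3 clusters, height 94, 78.4% of 783 bases), at distances of 0.754, 1.04 and 1.06. Nearest to Gsk3b were the nuclear phosphoprotein gene Nucks1 (7 clusters, height 37) and the transcription factor gene Zfhx3 (6, height 42), at 0.175 and 0.407. Nearest to Tcf7l2 were the membrane protease gene Adam10 (3, height 51), the synaptotagmin gene Syt1 (3, height 54) and the calcium-binding calumenin gene Calu (3, height 45), at 0.141, 0.245 and 0.300. None of the 3 genes was among the nearest of another: Tcf7l2 was the 95th nearest gene to Gsk3b (distance 1.82, median over all genes 3.15), and Tcf7l2 and Gsk3b were the 137th and 229th nearest to Ctnnb1 (6.04 and 6.61, median 7.08).

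Few other genes of the pathway groups used here were listed, at a share that cannot be told from that of all genes. Of 93 pathway genes in 10 groups by role, with some genes in more than 1 group, 8 carried a cluster (8.60%, exact 95% interval 3.79 to 16.2, counting error only), against 3.47% of all protein-coding genes (760 of 21896). Without Ctnnb1, Gsk3b and Tcf7l2 this was 5 of 90 (5.56%, 1.83 to 12.5), an interval that includes the background share. The 5 were Sfrp1, Fzd3, Csnk1a1, Apc and Ppp2ca. Each of them had at least 2 clusters, as had 44.9% of all listed genes (342 of 761), and in each the tallest was above the cluster median of 30, as in 53.7% of all listed genes (409 of 761). The groups do not hold every gene with a role in the pathway, so all these counts depend on their make-up. Among listed genes left out of them were Apcdd1 (tallest 26), Dact1 (34), Tle5 (29), Tnks2 (37) and Ppp2cb (19). The cyclin D gene Ccnd2 was also left out, and it was listed with 17 clusters in its 3′ UTR and a tallest height of 77.

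Upstream of beta-catenin, 0 of 19 Wnt ligand genes (upper 95% limit 17.6%), 0 of 9 genes for ligand secretion and R-spondin signalling, 0 of 2 receptor ubiquitin ligase genes and 0 of 3 Dishevelled genes were listed. At the background share of 3.47%, 0.659 listed ligand genes and 0.312 of the secretion group would be found, so these counts of 0 cannot be told from the background. Of 12 extracellular inhibitors, Sfrp1, a secreted Frizzled-related protein that binds Wnt ligands, was listed with 2 clusters. The higher had a height of 40 and a fold of 9.30, close to the fold of the tallest Ctnnb1 cluster. Of 12 receptor and co-receptor genes, Fzd3 was listed with 27 clusters and a tallest height of 55 (fold 9.34), which is between Ctnnb1 and Tcf7l2. Its clusters covered 18.9% of a 10278-base interval.

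The destruction complex, which phosphorylates beta-catenin and hands it to the ubiquitin ligase, had 4 listed genes of 13 (30.8%, exact 95% interval 9.09 to 61.4, counting error only), against the background share of 3.47%. The count includes Gsk3b, a chosen member, and the group was written with earlier results of these data known. It is therefore no independent evidence about the complex. Besides Gsk3b, the other 3 were Csnk1a1, the casein kinase that primes beta-catenin for GSK3 (3 clusters, tallest 48, fold 5.48), Apc, the scaffold (3 clusters, tallest 43, fold 4.98), and Ppp2ca, a catalytic subunit of protein phosphatase 2A (4 clusters, tallest 40, fold 6.19). All their clusters were in 3′ UTRs. Ppp2ca and Csnk1a1 had short intervals (775 and 866 bases) and the highest coverage of the 8 genes after Ctnnb1, at 40.9% and 27.9%, while Apc was covered to 5.87%. Axin1, Axin2, Gsk3a and Btrc, the last encoding the ligase subunit that recognises phosphorylated beta-catenin, were not listed.

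Among beta-catenin itself and the TCF/LEF factors, Ctnnb1 and Tcf7l2 were listed and Tcf7, Lef1 and Tcf7l1 were not. In the nucleus, 0 of 13 genes for co-factors (upper 95% limit 24.7%) and 0 of the 12 target genes grouped here (26.5%) were listed. The background share would give 0.451 and 0.417. The target group holds Ccnd1 but not Ccnd2, which was listed. A gene is missing from the list when no cluster of it passed the authors' thresholds, so an unlisted gene is not shown to be unbound, and how strongly each transcript was expressed was not analysed here. Tcf4, which is also listed, is the gene of an E-protein that shares an old name with Tcf7l2, and none of its transcripts is shared with it.

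**Figure D4:**
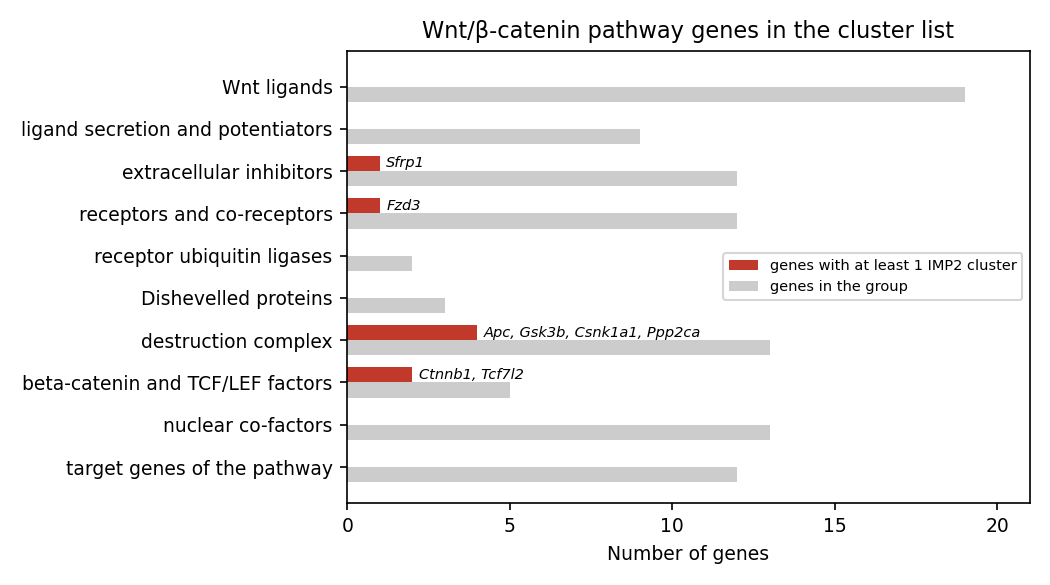
Genes of the Wnt/beta-catenin pathway by role (y axis): red bars count genes with at least 1 IMP2 cluster, grey bars all genes of the group (x axis, number of genes), with the listed genes named. Listed genes are in 4 of the 10 groups, with 4 in the destruction complex and 2 among beta-catenin and the TCF/LEF factors.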

How the data were processed

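HITS-CLIP of IMP2 was measured in 4 libraries of E14 mouse brain. The submitters' processing notes name FastQC, Bowtie and mm9; no source used here gives the peak caller, its thresholds or any pooling of libraries. The deposited list has 2865 lines, 1 for each cluster and transcript. Per the file headers it holds a cluster height, a signal (pileup) value, and its fold, a ratio to an undefined level. No column belongs to a single library.

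Lines were reduced to distinct clusters, and starts made 1-based. Symbols were updated through a RefSeq table of GRCm38 (1087 of 1099 transcripts by accession, 11 by name), which gave no coordinates. A cluster's region is that of its midpoint, 3′ UTR first where transcripts differ. Coverage, gaps and positions use the longest deposited 3′ UTR interval of a gene, a single genomic stretch; a part of the 3′ UTR in another exon would be missed. Intervals of shares are Clopper-Pearson. Functions were tested on simulated clusters. Python 3.11.15, pandas 2.3.3 and SciPy 1.17.1 were used.

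The members and gene lists were chosen with earlier results of these data known. The naming rule was the 3 members, every listed pathway gene and the 3 genes nearest to each member, of which 1 is not reported here. Alternatives joined clusters, raised thresholds or changed the interval, region rule, level or weighting. No sequence of the clusters is printed, since no mm9 genome was used here.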

Additional observations from a re-analysis of the deposited data

How the results depend on the processing

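No paired analysis was possible because no column holds values of a single library; for the same reason no library could be left out. Joining clusters at most 50 bases apart left 3 of the 6 Ctnnb1 clusters, and joining at most 60 bases apart, a setting chosen after the gaps were seen, left 1, so the number for Ctnnb1 rests on dips of up to 51 bases. Counting clusters taller than the list median left 5 for Gsk3b and 2 for Tcf7l2, and coverage became 72.3% for Ctnnb1, 5.77% for Gsk3b and 4.91% for Tcf7l2. Counting clusters with a fold above the list median left 3 for Ctnnb1, 1 for Gsk3b and 1 for Tcf7l2. The shortest 3′ UTR interval of Tcf7l2 gave a coverage of 6.45%. Ranked by the highest fold in place of the height, Ctnnb1 was 106, Gsk3b 507 and Tcf7l2 384 of 761; by the median height of its clusters, Ctnnb1 was 20, Gsk3b 236 and Tcf7l2 287, which puts Gsk3b ahead of Tcf7l2. The number of 3′ UTR clusters of each gene did not move under either rule for the region. Like the main rule, both count a cluster when any transcript places it in a 3′ UTR. A difference between isoforms, as in Tcf7l2, therefore could not move this number. Mean positions moved by less than their SD, and the 8 listed pathway genes stayed 8 under each alternative. The causes of these shifts were not tested. Depth and PCR duplicates are unknown, so small differences in height cannot be read.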

Other observations

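GSK3B and beta-catenin both have partners outside the Wnt pathway, some of which were listed. Of 8 genes for GSK3 substrates outside the pathway, 6 carried IMP2 clusters (75%, exact 95% interval 34.9 to 96.8, counting error only), against 3.47% of all protein-coding genes. They were Dpysl2, which encodes the tubulin-binding collapsin response mediator CRMP2 (10 clusters, tallest 96), Map1b, a microtubule-associated protein of growing axons (25 clusters, tallest 90), the plus-end-tracking proteins Clasp1 (2 clusters, tallest 54) and Clasp2 (1 cluster, 27), the spectraplakin Macf1 (3 clusters, tallest 27) and Mapt, which encodes tau (2 clusters, tallest 20). Gys1 and Eif2b5, substrates in glycogen synthesis and translation, were not listed. The 6 listed genes all act on microtubules, and the list was written with results for Dpysl2, Map1b and Mapt known, so the count is no independent evidence about GSK3 substrates.

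Of 11 genes of the cadherin-catenin complex, in which beta-catenin works at the membrane, Ctnna2, the neuronal alpha-catenin that ties the complex to actin, was listed (9.09%, exact 95% interval 0.230 to 41.3; the background share is 3.47%). It had 1 cluster of height 23 and fold 4.41 over 36 bases, rank 621 of 761 by height. The coverage of its 3′ UTR interval was 3.94%, against 78.2% in Ctnnb1. The N-cadherin gene Cdh2 was not listed.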
